A study of Mus musculus with 20 samples.

Results

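The genes described here are 10 that macrophages use to show antigen to CD4+ T cells: the transcriptional coactivator Ciita, the MHC class II chains H2-Aa, H2-Ab1 and H2-Eb1, the invariant chain Cd74, the peptide exchange chains H2-DMa and H2-DMb1, and the costimulatory molecules Cd40, Cd80 and Cd86. They were chosen by symbol, and all 10 were found among the 17787 genes of the deposited table. Their transcripts were measured by RNA sequencing in mouse bone marrow-derived macrophages (BMDM), cells grown from marrow in medium that drives macrophage differentiation. There were 20 libraries in 6 groups: Brg1 siRNA with Dex+LPS (n = 4), LPS (n = 3) or vehicle (n = 3), and control siRNA with Dex+LPS (n = 4), LPS (n = 3) or vehicle (n = 3). The comparisons ask which transcripts depend on Brg1 (gene Smarca4), the motor subunit of BAF, a complex that moves nucleosomes, in resting macrophages, in macrophages given LPS, and in macrophages given LPS together with a glucocorticoid.

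Every group came from wild type male C57BL/6J mice, and the marrow cells had 7 days of culture with L929 supernatant. Each arm then received 50 nM of a single siRNA product (control or against Brg1) for 48 h, so the knockdown rests on 1 product. For the last 6 h the cells had vehicle (ethanol and D-PBS), LPS (lipopolysaccharide, a component of the bacterial outer membrane, 100 ng/ml, with ethanol) or Dex+LPS, in which 1 µM of the synthetic glucocorticoid dexamethasone (Dex) accompanied the LPS. No group had Dex without LPS, so a Dex response here is always Dex+LPS against LPS. The labels do not say whether a group's replicates came from separate cultures or animals. The p-values thus speak of the variation among these libraries, which may be technical. The series text speaks of 3 replicates, while the labels give 4 in both Dex+LPS groups, and all 20 libraries were used.

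MHC class II molecules are pairs of an alpha and a beta chain that carry peptides from engulfed proteins to the cell surface, where CD4+ T cells read them. In macrophages the class II genes are low at rest and are raised by interferon gamma through Ciita, which is held at their promoters by factors bound to the X and Y boxes, short elements just upstream of the start. CD80 and CD86 give the T cell its second signal through CD28, or restrain it through CTLA-4, and CD40 receives the T cell's answer, CD40 ligand.

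Letters of the X1 and Y boxes were found in the promoters of H2-DMb1 and H2-Eb1. In that of H2-Aa a cyclic AMP response element and a Y box were found, and no X1 match. Ciita acts through X and Y boxes, so these stretches are shown. They are RefSeq promoter sequences of build GRCm38.p6, printed 5′ to 3′ on the gene's strand, with the matched letters in capitals. They belong to H2-DMb1 (chr17:34153090-34153144, plus strand), H2-Eb1 (chr17:34305769-34305822, plus strand) and H2-Aa (chr17:34287857-34287907, minus strand).
H2-DMb1: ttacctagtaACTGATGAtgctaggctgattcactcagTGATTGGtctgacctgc
H2-Eb1: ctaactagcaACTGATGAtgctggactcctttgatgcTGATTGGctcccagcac
H2-Aa: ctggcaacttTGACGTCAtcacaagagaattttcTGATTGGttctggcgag

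In H2-DMb1 and H2-Eb1 the first capitals match ACNGATGA, the letters searched for as the core of the X1 box, and begin 91 and 88 bases upstream of the RefSeq start. In H2-Aa the first capitals match TGACGTCA, a cyclic AMP response element, and begin 74 bases upstream. The second capitals in all 3 match TGATTGG, the Y box, and begin 63, 61 and 50 bases upstream. Both strands of 300-base windows were searched, and the letters were set after these promoters had been seen, so the matches are a description. The X1 letters occurred in 2.55% of 32851 promoter windows, the cyclic AMP element in 1.79% and the Y box in 7.82%. Both X1 and Y letters occurred in 68 windows of 64 genes (0.207% of windows). Of these genes 8 have H2 names, all on chromosome 17. They are the class II genes H2-DMb1, H2-DMb2, H2-Eb1 and H2-Oa and the class I genes H2-D1, H2-Q4, H2-Q6 and H2-Q7. Windows were at hand for 5 members, and those of H2-DMa and Cd80 held none of the 3 letter strings. These windows lie inside the annotated genes, which have 8 and 3 transcripts. Other starts of H2-DMa and Cd80 may thus not have been searched.

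Values are normalized counts, which are read counts divided by a size factor for each library. Fold changes are differences of log2(normalized count + 1) from limma, and a change is called where the p-value adjusted over 12061 tested genes (Benjamini-Hochberg) is under 0.05. All 10 members passed the filter on low values. Libraries held 13.69 to 18.71 M reads. Smarca4 was lower with Brg1 siRNA in each treatment, with a log2 fold change of -2.10 in Dex+LPS, -2.28 in LPS and -2.12 in vehicle. All 10 macrophage markers examined were expressed, among them Lyz2, Adgre1 and Csf1r. Their summed level was higher with Brg1 siRNA without overlap: 350131 to 359475 against 281736 to 327887 in Dex+LPS, 421897 to 434861 against 279010.0 to 295685 in LPS, and 291779 to 302366 against 236440.0 to 250175 in vehicle. The sum weighs the most abundant markers most, with group means of Lyz2 from 128812 to 227039. Taken singly, the markers went both ways: 6 rose and 3 fell in Dex+LPS, 5 and 1 in LPS, and 4 and 2 in vehicle. Of all genes 19% rose and 15.3% fell in Dex+LPS, 17.3% and 15.8% in LPS, and 9.39% and 10.8% in vehicle. The 4 libraries with higher library numbers (Brg1 siRNA LPS replicate 2 and Dex+LPS replicate 4, control siRNA LPS replicate 3 and Dex+LPS replicate 4) form a separate number series with no vehicle library. What that number stands for is not given in the sources used here, so results are also given below without these libraries where they differ. RNA was taken from whole cultures, so fewer cells of a type and less RNA per cell cannot be told apart.

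Some markers of other antigen-presenting cells moved with the siRNA as well, in both directions. In vehicle, 1 of the 7 tested dendritic cell markers rose and 3 fell. Of the 3 tested B cell markers 1 rose and 1 fell there, where 9.39% of all genes rose and 10.8% fell. Of 14 dendritic cell markers, 7 passed the filter, and their summed level was 3655 to 3929.9 with Brg1 siRNA and 4353 to 4980.0 with control siRNA in vehicle. In LPS the sum was 5637 to 5998 against 6419.7 to 7087, and in Dex+LPS 3187 to 4125 against 3927 to 4355. Within the list, Itgax (CD11c) had 403 to 439 with Brg1 siRNA and 1826 to 1906 with control siRNA in vehicle. Of the rest of the list, Bst2 reached a group mean of 4383, Clec10a and Cd24a reached 347 and 235, and Batf3, Zbtb46 and Ccr7 reached 24.2, 20.7 and 20.5. Dpp4 and Xcr1 reached 8.69 and 6.28, and Flt3, Siglech, Itgae, Clec9a and Cd209a stayed at 3.43 or less. Of 10 B cell markers, 6 were in the table and 3 passed the filter, with a summed level of 270.3 to 324 with Brg1 siRNA and 703 to 777 with control siRNA in vehicle, where Ighm alone had 43.1 to 54.6 and 606 to 677. Group means of Cd22 ranged from 15.2 to 236 and of Cd79b from 4.16 to 19.1, and those of Cd79a, Ms4a1 and Fcer2a were at most 0.789, 2.80 and 0.415. In LPS the B cell sum was 87.3 to 135 against 89.1 to 183, and in Dex+LPS 39.7 to 88.1 against 107 to 167. Of 11 T and NK cell markers 7 were in the table and 3 passed, with sums of 121 to 177 with Brg1 siRNA and 75.3 to 97.0 with control siRNA in vehicle. The part of these markers, macrophage markers included, in the results below was not tested.

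Levels of the members were first set side by side per kilobase of annotated exon, a scale on which genes can be roughly compared. The length joins the exons of all annotated transcripts of a gene, whichever of them the cells used. The orders below depend on that length, and the SDs do not cover it. With LPS, Cd40 stood highest, at 11494 ± 219 normalized counts per kb with Brg1 siRNA and 10765 ± 809.6 with control siRNA (mean ± SD, n = 3 each). Cd74 came next, at 5235 ± 157 and 6149.7 ± 193 per kb. H2-Ab1, H2-Aa and H2-DMb1 followed in that order in both arms, each gap being wider than the SDs. Below them, Cd80 (124 ± 14.3 per kb) and Cd86 (121 ± 12.0 per kb) could not be ranked with Brg1 siRNA, and with control siRNA Cd86 (66.4 ± 7.53 per kb) stood above Cd80 (46.4 ± 2.30 per kb). Ciita was low, as transcription regulators often are, at 28.7 ± 4.31 and 26.3 ± 1.58 per kb.

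With vehicle, Cd74 led instead, at 2136 ± 61.8 per kb with Brg1 siRNA and 3377 ± 249.9 with control siRNA, and Cd40 was at 32.7 ± 4.01 and 22.7 ± 2.42. H2-Aa and H2-DMb1 changed places between the arms: H2-DMb1 was above H2-Aa with Brg1 siRNA (342 ± 11.3 and 302 ± 10.4 per kb) and below it with control siRNA (300.1 ± 22.4 and 444 ± 34.8 per kb). With Dex+LPS, Cd40 and Cd74 were again the top pair, at 4819 ± 343 and 2781 ± 125 per kb with Brg1 siRNA and 4390.1 ± 344 and 3616 ± 638 with control siRNA. H2-DMb1 (464 ± 43.6 per kb) and H2-Aa (447 ± 16.9 per kb) did not differ beyond their spread there with Brg1 siRNA. H2-Eb1 and H2-DMa had the lowest means in every group, between 1.08 and 8.39 per kb. Their SDs overlapped each other everywhere, and in vehicle with Brg1 siRNA they also reached Ciita (5.37 ± 0.246 per kb).

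Brg1 silencing lowered 4 class II genes, Ciita among them, and raised all 3 costimulatory genes in resting macrophages. With LPS the called members were both costimulatory. With vehicle, 3 members rose (Cd40, Cd80, Cd86) and 4 fell (Ciita, H2-Aa, H2-Ab1, Cd74). Of all tested genes 9.39% rose and 10.8% fell in that comparison, 20.1% together. With LPS, 2 members were called, Cd80 and Cd86, both higher, where 33.1% of all genes were called, 17.3% higher and 15.8% lower. With plain library totals in place of the deposited size factors that became 2 higher and 2 lower, with H2-Aa (-0.26, limma adjusted p = 0.0346) and Cd74 (-0.37, adjusted p = 0.00773) added. With Dex+LPS, 3 rose (Ciita, Cd80, Cd86) and 2 fell (H2-Aa, Cd74), where 34.3% of all genes were called, 19% higher and 15.3% lower. Both plain totals and TMM factors left 2 higher and 2 lower there, without Ciita. The median log2 fold change of the 10 members was 0.16 in vehicle, 0.11 in LPS and 0.10 in Dex+LPS, beside 0.005, 0.0084 and 0.0087 over all genes. These medians include the sparsely counted H2-Eb1 and H2-DMa. Cd80 and Cd86 were thus the members called in all 3 treatments, and Cd74 was below control in every treatment but missed the threshold in LPS.

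**Figure D1:**
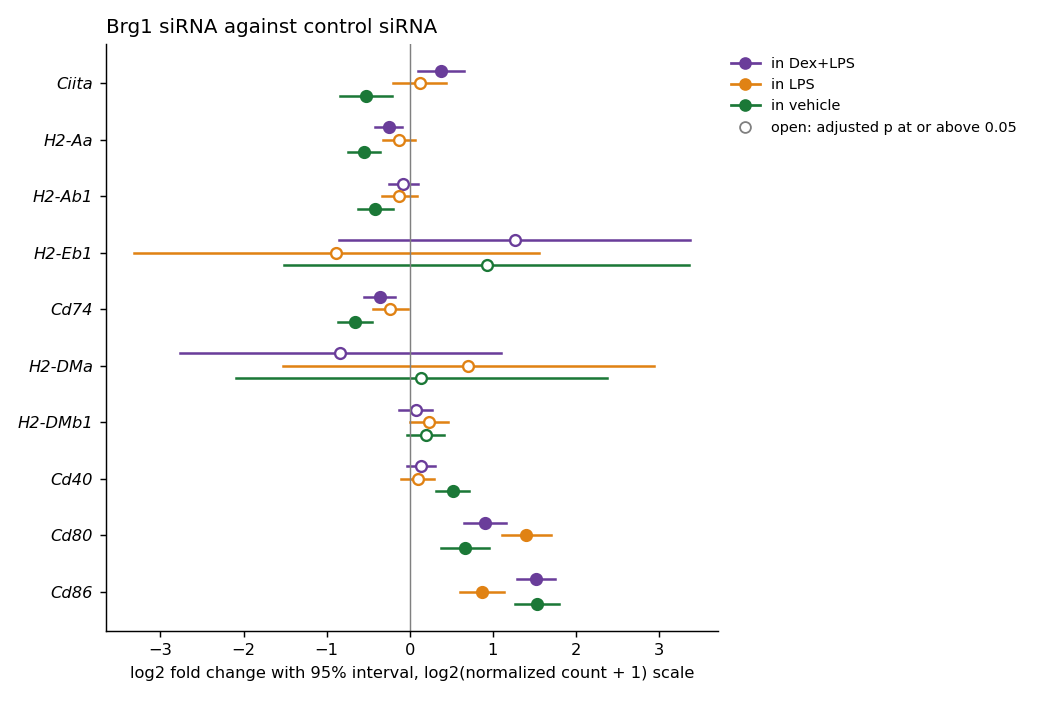
Log2 fold change of Brg1 siRNA against control siRNA for each of the 10 members in Dex+LPS, LPS and vehicle, with 95% intervals from limma on the log2(normalized count + 1) scale. Cd80 and Cd86 lie right of 0 in all 3 treatments, the vehicle points of Ciita, H2-Aa, H2-Ab1 and Cd74 lie left of 0, and the intervals of H2-Eb1 and H2-DMa are wide.

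Ciita (ENSMUSG00000022504, chr16:10480059-10528418 in GRCm38, plus strand) encodes the coactivator without which class II genes are not transcribed. Its knockdown change was negative in vehicle and positive in Dex+LPS, 2 effects whose difference was not tested. With vehicle it had normalized counts of 51.8, 53.2 and 48.6 with Brg1 siRNA, against 74.5, 89.5 and 61.2 with control siRNA. Every Brg1 siRNA library lay below every control library, and Ciita fell by 0.53 on the log2 scale (SE 0.151, limma adjusted p = 0.0178). The call was lost without control replicate 1 (adjusted p = 0.0503), control replicate 2 (-0.39, adjusted p = 0.107) or Brg1 siRNA replicate 3 (adjusted p = 0.0659), and when only these groups were fitted (adjusted p = 0.0636).

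With LPS, Ciita had 320.4, 243 and 258 with Brg1 siRNA, against 258, 260.3 and 233 with control siRNA. Only Brg1 siRNA replicate 1 stood above the control range, and the change was not called (log2 fold change 0.12, 95% interval -0.20 to 0.44, limma adjusted p = 0.59). With Dex+LPS it had 134, 163, 184 and 153 with Brg1 siRNA, against 139.5, 111, 126 and 109 with control siRNA. Here 3 of the 4 Brg1 siRNA libraries exceeded every control library, and Ciita rose by 0.38 (SE 0.13, limma adjusted p = 0.0316). That call was lost when any of 4 of the 8 libraries was left out (control replicates 2 and 4, Brg1 siRNA replicates 2 and 3, adjusted p = 0.0699 to 0.106), without the higher number series (0.34, adjusted p = 0.112), when only these groups were fitted (adjusted p = 0.0693), and under TMM factors (0.34, adjusted p = 0.0502) or plain totals (0.28, adjusted p = 0.103).

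LPS itself raised Ciita in both arms, 5.23-fold with Brg1 siRNA (log2 fold change 2.39, limma adjusted p = 7.95e-11) and 3.34-fold with control siRNA (log2 fold change 1.74, adjusted p = 7.31e-09). The difference between these responses was 0.65 (SE 0.213, adjusted p = 0.0591) and was not called with all libraries. It was called without control vehicle replicate 3 or without Brg1 siRNA LPS replicate 2, at 0.73 to 0.78 (adjusted p = 0.0232 to 0.0477), and with the number series as a covariate (0.65, adjusted p = 0.0384) or by DESeq2 (0.68, adjusted p = 0.0424). Adding Dex to LPS lowered Ciita in both arms, by 0.78 with Brg1 siRNA (limma adjusted p = 0.000182) and by 1.04 with control siRNA (adjusted p = 6.91e-06). The Dex+LPS libraries nonetheless stayed above all vehicle libraries of the same siRNA.

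H2-Aa (ENSMUSG00000036594, chr17:34282744-34287823, minus strand) and H2-Ab1 (ENSMUSG00000073421, chr17:34257689-34269419, plus strand) encode the alpha and beta chains of I-A, the class II molecule of C57BL/6 mice. H2-Aa in vehicle had 1149, 1189 and 1109 normalized counts with Brg1 siRNA, against 1779, 1536 and 1749 with control siRNA. The groups were well apart, and H2-Aa fell by 0.55 (SE 0.0915, limma adjusted p = 0.00024). H2-Ab1 in vehicle had 507, 476 and 483 with Brg1 siRNA, against 713, 575 and 673 with control siRNA. It too was lower in every Brg1 siRNA library, and it fell by 0.41 (SE 0.0981, adjusted p = 0.00531). Beside these falls, and those of Ciita and Cd74 in vehicle, stand the lower dendritic cell and B cell marker sums of the same libraries given above. Itgax and Ighm fell within those lists, while the called genes of each list went both ways. The part of these markers was not tested.

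With LPS, H2-Aa had 2603, 2578 and 2352 with Brg1 siRNA, against 2622, 2789 and 2788 with control siRNA. The arms came close without overlapping, and the difference was not called (log2 fold change -0.12, 95% interval -0.32 to 0.07, limma adjusted p = 0.33). H2-Ab1 had 2479.9, 2529.7 and 2369 with Brg1 siRNA, against 2509.6, 2586 and 2961 with control siRNA, overlapping ranges with the same estimate (-0.12, 95% interval -0.33 to 0.08, adjusted p = 0.365). The intervals exclude a fall as large as either gene's estimate in vehicle. For H2-Aa the difference between the knockdown effects in LPS and in vehicle was called, at 0.43 (SE 0.129, adjusted p = 0.0386). It lost the call when any of 10 of the 12 libraries was left out (0.39 to 0.45, adjusted p = 0.053 to 0.0939), the exceptions being control vehicle replicate 2 and Brg1 siRNA LPS replicate 3, and also without the higher number series (0.42, adjusted p = 0.111), with plain totals (0.33, adjusted p = 0.117) and with no filter on low values (adjusted p = 0.0523). For H2-Ab1 the same difference was 0.29 and was not called (adjusted p = 0.212).

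With Dex+LPS, H2-Aa had 1643, 1643, 1727 and 1772 with Brg1 siRNA, against 1739.8, 2445, 1936 and 2034 with control siRNA. Control replicate 2 was the highest library and control replicate 1 overlapped the Brg1 siRNA range. H2-Aa fell by 0.25 (SE 0.0792, limma adjusted p = 0.0185), a call lost without control replicate 2 (-0.16, adjusted p = 0.0555) and without the higher number series (-0.27, adjusted p = 0.0509), and when only these groups were fitted (adjusted p = 0.0941). H2-Ab1 had 1511, 1599, 1619 and 1725 with Brg1 siRNA, against 1436, 1944, 1664 and 1789.7 with control siRNA. These ranges overlapped and no change was called (log2 fold change -0.08, 95% interval -0.25 to 0.10, adjusted p = 0.533).

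The 2 chains of I-A responded to LPS in unequal measure. H2-Ab1 rose 5.02-fold with Brg1 siRNA and 4.11-fold with control siRNA (limma adjusted p = 1.94e-13 and 1.49e-12). H2-Aa rose 2.18-fold and 1.62-fold (adjusted p = 2.97e-09 and 1.84e-06). As a consequence of these values, the ratio of H2-Aa to H2-Ab1 counts within a library was 1.02 ± 0.0285 with Brg1 siRNA and 1.02 ± 0.0713 with control siRNA in LPS (mean ± SD, n = 3 each), and 2.35 ± 0.125 and 2.59 ± 0.0892 in vehicle. In Dex+LPS it was 1.05 ± 0.0296 and 1.19 ± 0.0535 (n = 4 each), with every Brg1 siRNA library below every control library. A ratio within a library does not depend on the scaling of libraries. Adding Dex to LPS lowered both chains: H2-Aa fell by 0.56 with Brg1 siRNA and 0.43 with control siRNA (adjusted p = 3.09e-05 and 0.000396), and H2-Ab1 fell by 0.61 and 0.66 (adjusted p = 2.91e-05 and 1.03e-05).

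Scaling bears on these smaller responses. When plain library totals replaced the deposited size factors, the median of all genes moved by -0.67 (Brg1 siRNA) and -0.57 (control siRNA) in the LPS response, by 0.32 and 0.29 in the Dex response, and by -0.13 and -0.10 in the knockdown with LPS and with Dex+LPS. H2-Aa then had an LPS response of 0.12 with control siRNA (limma adjusted p = 0.258) and a Dex response of -0.14 (adjusted p = 0.191), both no longer called. Relative to the median of all genes these were 0.73 and -0.42.

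Cd74 (ENSMUSG00000024610, chr18:60803848-60812652, plus strand) encodes the invariant chain, which blocks the peptide groove and guides new class II molecules to the endosome. It showed the clearest fall among the class II genes. With vehicle it had 3569, 3698 and 3492 normalized counts with Brg1 siRNA, against 6021, 5205 and 5784 with control siRNA. No libraries overlapped, and Cd74 fell by 0.66 (SE 0.1, limma adjusted p = 0.000103), to 0.634 times the control level. With LPS it had 8988, 8890.1 and 8491 with Brg1 siRNA, against 9973, 10394 and 10609 with control siRNA. The arms did not overlap, yet the difference missed the threshold (-0.23, SE 0.1, adjusted p = 0.0849), and it passed when only these 2 groups were fitted (adjusted p = 0.00941).

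With Dex+LPS, Cd74 had 4538, 4566, 4593 and 4983 with Brg1 siRNA, against 4995, 7492, 5576 and 6225 with control siRNA. The highest Brg1 siRNA library lay just under the lowest control library, and Cd74 fell by 0.36 (SE 0.0866, limma adjusted p = 0.00317). LPS raised Cd74 2.45-fold with Brg1 siRNA and 1.82-fold with control siRNA (adjusted p = 1.47e-09 and 3.59e-07). The 2 responses differed by 0.43 (SE 0.141), which was not called (adjusted p = 0.0607). It was called with the number series as a covariate (adjusted p = 0.046), with only the groups compared (adjusted p = 0.00319) and by DESeq2 (adjusted p = 0.03). Adding Dex lowered it by 0.91 with Brg1 siRNA and 0.78 with control siRNA (adjusted p = 2.84e-07 and 1.64e-06). Cd74 and H2-Aa kept a narrow proportion within libraries: their ratio was 2.66 to 2.81 with Brg1 siRNA and 2.87 to 3.06 with control siRNA in Dex+LPS, 3.45 to 3.61 and 3.73 to 3.81 in LPS, and 3.11 to 3.15 and 3.31 to 3.39 in vehicle. It was lower with Brg1 siRNA than with control siRNA in every treatment, with no overlap.

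**Figure D2:**
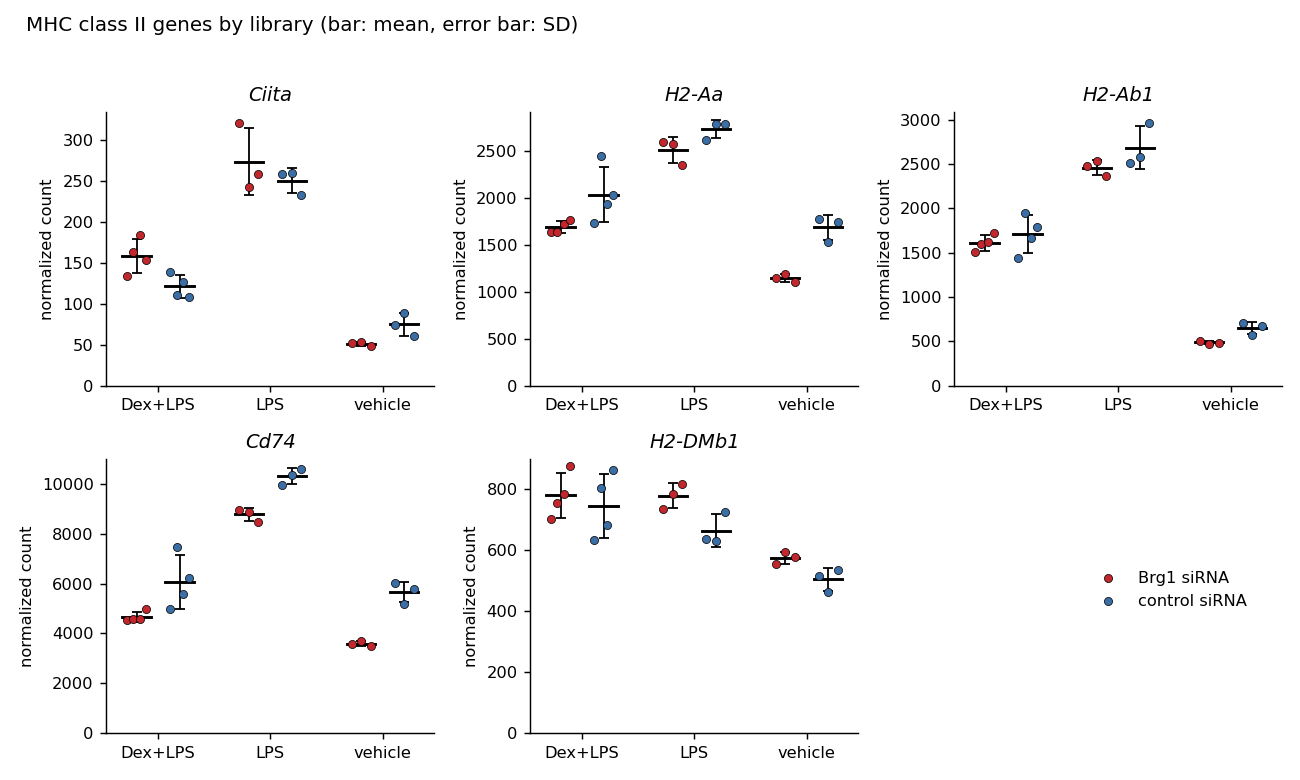
Normalized counts of Ciita, H2-Aa, H2-Ab1, Cd74 and H2-DMb1 in each of the 20 libraries (points), with group mean (bar) and SD (error bar), n = 4 for Dex+LPS and n = 3 for LPS and vehicle. In vehicle the Brg1 siRNA points of Ciita, H2-Aa, H2-Ab1 and Cd74 lie below all control siRNA points, and those of H2-DMb1 lie above them.

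H2-DMb1 (ENSMUSG00000079547, chr17:34153072-34160230, plus strand) encodes the beta chain of H2-DM, which swaps the invariant chain remnant for antigenic peptide. Of its 31-base words, 31.4% also occur in its neighbour H2-DMb2, so reads could be split between the pair and its counts are uncertain. H2-DMb2 itself had at most 17.6 normalized counts in any library. In vehicle H2-DMb1 had 556, 593 and 576 with Brg1 siRNA, against 516, 462 and 535 with control siRNA. In LPS it had 736, 785 and 819.5 against 638, 631 and 726. In both treatments every Brg1 siRNA library was the higher, but neither change was called (0.19 and 0.23, limma adjusted p = 0.242 and 0.106). Fitted with the number series as a covariate, the LPS change was called (0.23, adjusted p = 0.0437).

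In Dex+LPS, H2-DMb1 had 704, 756, 785 and 878 with Brg1 siRNA, against 633, 806, 684 and 862 with control siRNA, overlapping ranges (0.07, 95% interval -0.12 to 0.27, limma adjusted p = 0.592). LPS raised H2-DMb1 by 0.44 with Brg1 siRNA and 0.40 with control siRNA (adjusted p = 0.00125 and 0.00273). That direction depends on the scaling: with plain library totals the values were -0.24 and -0.18 (adjusted p = 0.0563 and 0.144), and relative to the median of all genes 0.48 and 0.43. No Dex response was called in either arm (-0.002 with Brg1 siRNA and 0.16 with control siRNA, adjusted p = 0.99 and 0.202). With plain totals a rise was called in both arms (0.33 and 0.46, adjusted p = 0.0125 and 0.0012), which relative to all genes was 0.021 and 0.17.

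H2-Eb1 (ENSMUSG00000060586, chr17:34305867-34316674, plus strand) encodes the beta chain of I-E, whose alpha partner C57BL/6 mice do not express, and H2-DMa (ENSMUSG00000037649, chr17:34119541-34139101, plus strand) encodes the alpha chain of H2-DM. Both were near the limit of detection, where 3 reads, the most that a count of 0 allows, were worth 2.30 to 3.74 normalized counts. H2-Eb1 had 0, 3.34, 18.2 and 9.23 with Brg1 siRNA, against 0, 0, 3.05 and 5.36 with control siRNA, in Dex+LPS. It had 11.2, 13.7 and 0 against 6.76, 10.4 and 11.8 in LPS, and 5.58, 13.3 and 2.56 against 5.86, 0 and 6.12 in vehicle. Its X1 and Y letters, printed above, thus stand in the promoter of a gene with hardly any reads in these cells. H2-DMa had 0, 24.5, 0 and 17.5 with Brg1 siRNA, against 4.53, 12.8, 3.05 and 14.5 with control siRNA, in Dex+LPS. It had 12.5, 31.2 and 43.2 against 18.0, 20.8 and 9.63 in LPS, and 10.4, 29.7 and 7.67 against 24.3, 11.6 and 6.12 in vehicle.

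For both genes the arms overlapped in all 3 treatments, and their 95% intervals for the knockdown spanned more than 3 log2 units. With so few reads and so wide a spread among replicates, only a large change could have been called. For H2-Eb1 a Dex response with control siRNA was called only when those groups alone were fitted (-2.21, limma adjusted p = 0.0457, against 0.102 with all groups). For H2-DMa one call was made: it fell by 2.52 when Dex was added to LPS with Brg1 siRNA (limma adjusted p = 0.0473). It was lost without Brg1 siRNA LPS replicate 2 or 3 or Dex+LPS replicate 1 or 3 (-2.39 to -1.78, adjusted p = 0.113 to 0.154). It was also not called by edgeR (-1.41, adjusted p = 0.221), by DESeq2 (-1.46, adjusted p = 0.205), without the higher number series (-3.05, adjusted p = 0.0537) or in the authors' deposited table.

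Cd40 (ENSMUSG00000017652, chr2:165055627-165072948, plus strand) is the receptor through which T cell help reaches the macrophage. It had the largest response to LPS of the 10 members. In LPS it had 39973, 38519.9 and 38951 normalized counts with Brg1 siRNA, against 36006, 34297 and 39692 with control siRNA. In vehicle it had 108, 99.3 and 126 with Brg1 siRNA, against 75.3, 70.4 and 86.5 with control siRNA. The LPS response was thus 350.2-fold with Brg1 siRNA and 468-fold with control siRNA (log2 fold change 8.45 and 8.87, limma adjusted p = 8.86e-22 and 4.14e-22).

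The knockdown raised Cd40 in vehicle, where the arms did not overlap, by 0.52 (SE 0.0937, limma adjusted p = 0.000571). In LPS the ranges overlapped and no change was called (0.10, 95% interval -0.10 to 0.29, adjusted p = 0.463). The difference between these effects was -0.42 (SE 0.133, adjusted p = 0.0487). That call was lost when any of 9 of the 12 libraries was left out (-0.43 to -0.33, adjusted p = 0.0725 to 0.139), the exceptions being control vehicle replicate 3, control LPS replicate 2 and Brg1 siRNA vehicle replicate 2, and also without the higher number series (-0.35, adjusted p = 0.161). It was not made by edgeR (-0.43, adjusted p = 0.0601) or DESeq2 (-0.43, adjusted p = 0.0534), nor by limma with a pseudocount of 5, with no filter or with only the groups compared (adjusted p = 0.0543, 0.0685 and 0.0544).

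With Dex+LPS, Cd40 had 15725, 15336, 16621 and 17969 with Brg1 siRNA, against 15978, 15165, 13272 and 15396 with control siRNA. The arms overlapped, and no knockdown change was called (0.14, 95% interval -0.04 to 0.31, limma adjusted p = 0.217). Every one of these libraries was below every LPS library. Adding Dex lowered Cd40 to 0.418 times the LPS level with Brg1 siRNA and 0.408 times with control siRNA (adjusted p = 1.77e-09 and 8.39e-10).

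Cd80 (ENSMUSG00000075122, chr16:38455561-38496335, plus strand), also called B7-1, binds CD28 and CTLA-4. Brg1 silencing raised it in all 3 treatments. With Dex+LPS it had 661, 574, 591 and 461 normalized counts with Brg1 siRNA, against 372, 299, 299 and 246 with control siRNA. With LPS it had 398, 492 and 486 with Brg1 siRNA, against 177, 162 and 176 with control siRNA. With vehicle it had 84.5, 93.8 and 93.8 with Brg1 siRNA, against 56.9, 57.2 and 55.9 with control siRNA. No Brg1 siRNA library overlapped the control libraries of its treatment. Cd80 rose by 0.91 in Dex+LPS (SE 0.12, limma adjusted p = 1.04e-05). The rise was 1.41 in LPS (SE 0.138, adjusted p = 4.76e-07) and 0.67 in vehicle (SE 0.138, adjusted p = 0.00185). The effect was larger in LPS than in vehicle, by 0.74 (SE 0.196, adjusted p = 0.0188). That difference lost its call without Brg1 siRNA vehicle replicate 1 (0.69, adjusted p = 0.0501). Between Dex+LPS and LPS it was -0.49 and not called (adjusted p = 0.168).

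LPS raised Cd80 5.00-fold with Brg1 siRNA and 2.99-fold with control siRNA (limma adjusted p = 3.42e-11 and 8.56e-09). Cd80 was the one member that Dex raised further: with control siRNA it rose by 0.81 (SE 0.13, adjusted p = 4.98e-05), and the Dex+LPS libraries were all above the LPS libraries. With Brg1 siRNA the ranges overlapped and the value was 0.31 (SE 0.13, adjusted p = 0.0596). Without Dex+LPS replicate 4 it was 0.41 and called (adjusted p = 0.0129), as it was without the higher number series (0.47, adjusted p = 0.00754), with TMM factors (0.34, adjusted p = 0.0396), with plain totals (0.64, adjusted p = 0.000351) and by edgeR (0.34, adjusted p = 0.0325).

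Cd86 (ENSMUSG00000022901, chr16:36603869-36666081, minus strand), or B7-2, is the second ligand of CD28 and CTLA-4. It had the largest knockdown effect of the 10 members in vehicle and in Dex+LPS. With Dex+LPS it had 93.8, 89.2, 102 and 107 normalized counts with Brg1 siRNA, against 37.2, 27.8, 35.6 and 33.7 with control siRNA. With LPS it had 459, 395 and 479.7 with Brg1 siRNA, against 275, 228 and 227 with control siRNA. With vehicle it had 210.5, 194 and 194 with Brg1 siRNA, against 65.3, 72.9 and 66.4 with control siRNA. Brg1 siRNA libraries were above all control libraries in each treatment. Cd86 rose by 1.52 in Dex+LPS (SE 0.108, limma adjusted p = 6.29e-09). The rise was 0.87 in LPS (SE 0.125, adjusted p = 3.42e-05) and 1.53 in vehicle (SE 0.125, adjusted p = 9.31e-08).

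The knockdown effect on Cd86 was smaller in LPS than in vehicle, by -0.67 on the log2 scale (SE 0.177, limma adjusted p = 0.019), while that on Cd80 was larger. The Cd86 difference lost its call without control LPS replicate 1, Brg1 siRNA vehicle replicate 1 or Brg1 siRNA LPS replicate 2 (-0.63 to -0.57, adjusted p = 0.0514 to 0.0593), and without the higher number series (-0.63, adjusted p = 0.0562). The effect on Cd86 was also larger in Dex+LPS than in LPS, by 0.65 (SE 0.165, adjusted p = 0.0315). This was the single member called in that comparison, where 3.97% of all genes were called, 2.75% upward and 1.22% downward. It lost its call when any of 5 of the 14 libraries was left out: control LPS replicate 1, Brg1 siRNA LPS replicates 1 and 2, and Brg1 siRNA Dex+LPS replicates 3 and 4 (0.56 to 0.68, adjusted p = 0.0531 to 0.101). Without the higher number series it was 0.58 (adjusted p = 0.154), and it was also not called with a pseudocount of 5, with no filter or with only the groups compared (adjusted p = 0.0508, 0.0554 and 0.0892).

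LPS raised Cd86 2.22-fold with Brg1 siRNA and 3.52-fold with control siRNA (limma adjusted p = 1.64e-07 and 2.84e-10). Dex lowered it to 0.222 times the LPS level with Brg1 siRNA and 0.141 times with control siRNA (adjusted p = 5.08e-11 and 8.09e-13). In Dex+LPS it was below every vehicle library of the same siRNA, an ordering that was not tested. Cd80 and Cd86 thus moved apart under Dex. Their ratio within a library was 5.90 ± 1.18 with Brg1 siRNA and 9.12 ± 1.56 with control siRNA in Dex+LPS (mean ± SD, n = 4 each), and 1.04 ± 0.191 and 0.711 ± 0.0674 in LPS (n = 3 each). In vehicle it was 0.457 ± 0.0478 and 0.833 ± 0.0446 (n = 3 each). With Brg1 siRNA the ratio was lower than with control siRNA in all vehicle and Dex+LPS libraries, and higher in all LPS libraries. No test was made of the ratios.

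**Figure D3:**
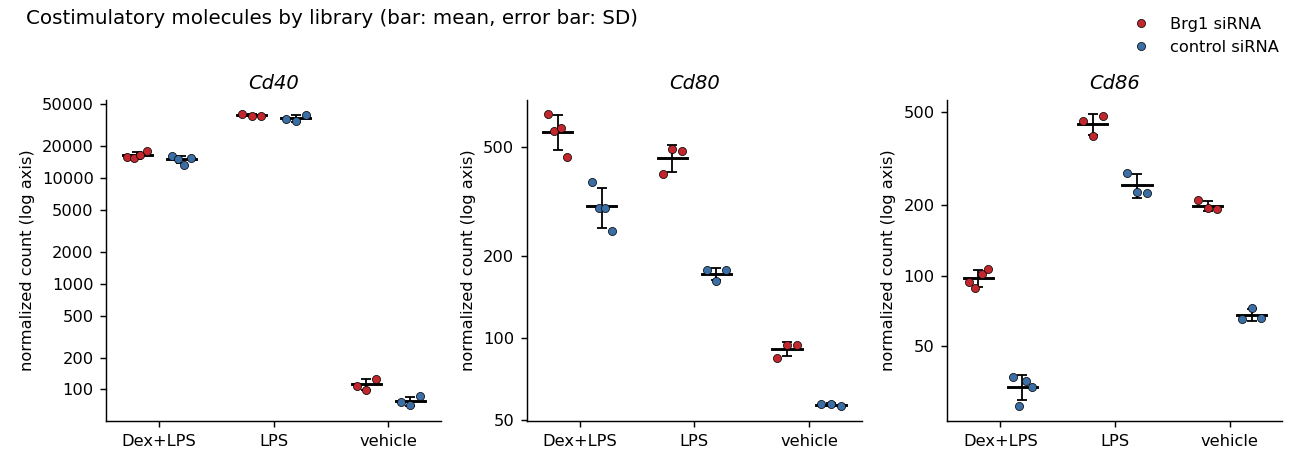
Normalized counts of Cd40, Cd80 and Cd86 in each of the 20 libraries (points) on log axes, with group mean (bar) and SD (error bar), n = 4 for Dex+LPS and n = 3 for LPS and vehicle. Cd80 and Cd86 are higher with Brg1 siRNA in every treatment, and within an siRNA arm the Dex+LPS libraries are the lowest for Cd86, and with control siRNA they are the highest for Cd80.

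**Figure D4:**
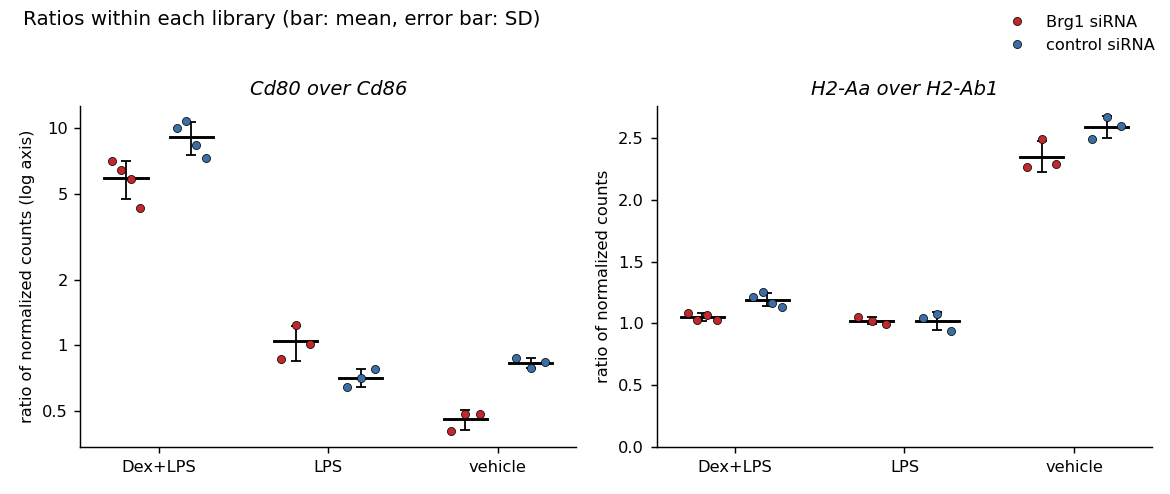
Ratio of normalized counts within each library for Cd80 over Cd86 (log axis) and for H2-Aa over H2-Ab1, with group mean (bar) and SD (error bar). Cd80 over Cd86 averages 5.90 with Brg1 siRNA and 9.12 with control siRNA in Dex+LPS, and lies between 0.40 and 1.25 in the LPS and vehicle libraries.

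Across the 10 members, 8 rose with LPS in each arm, the other members being H2-Eb1 and H2-DMa. Of all tested genes 35.4% rose and 37.4% fell with Brg1 siRNA (72.8% called), and 36% rose and 37% fell with control siRNA (73% called). With plain totals 7 members rose with Brg1 siRNA and 6 with control siRNA. H2-DMb1 was then not called in either arm, nor was H2-Aa with control siRNA. Adding Dex to LPS lowered 7 members with Brg1 siRNA (of all genes 21.3% rose, 23% fell and 44.4% were called) and 6 with control siRNA (23.4% rose, 25.2% fell and 48.7% were called), and raised Cd80 with control siRNA. With plain totals the Dex counts were 2 higher and 6 lower with Brg1 siRNA and 2 higher and 5 lower with control siRNA, H2-DMb1 being added to Cd80, and with TMM factors Cd80 was called in the Brg1 siRNA arm too. The 2 responses of an arm share its LPS libraries. The median member changed by 1.22 with Brg1 siRNA and 1.55 with control siRNA in response to LPS, beside -0.055 and -0.037 over all genes. For Dex the medians were -0.70 and -0.88, beside -0.015 and -0.0066. These medians include the sparsely counted H2-Eb1 and H2-DMa. With control siRNA, H2-Eb1 (1.51) and Cd80 (1.58) set the LPS median. There H2-DMa (-0.98) and Cd74 (-0.78) set the Dex median. The medians are thus no measure of which arm responded more. The knockdown effect differed between LPS and vehicle for 4 members, 2 in each direction (H2-Aa and Cd80 upward, Cd40 and Cd86 downward), where 11.4% of all genes were called, 6.39% upward and 5.05% downward. With plain totals it was 1 upward, Cd80, and 2 downward.

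**Figure D5:**
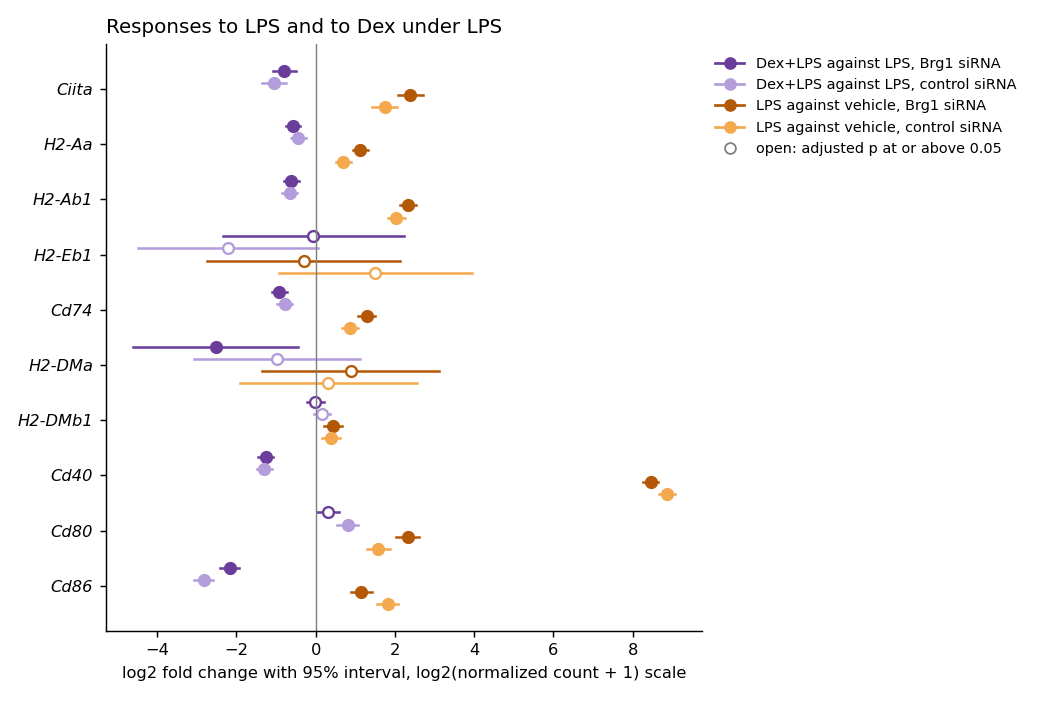
Log2 fold change of each member for Dex+LPS against LPS and for LPS against vehicle, with Brg1 siRNA and with control siRNA, and 95% intervals from limma on the log2(normalized count + 1) scale. Cd40 stands out at 8.45 and 8.87 in the LPS response, and Cd80 lies right of 0 under Dex where Cd86 lies at -2.17 and -2.82.

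Other genes of the pathway were counted by list. Of the 14 tested genes for accessory chains and peptide loading, 4 rose with Brg1 siRNA in vehicle, where 9.39% of all genes rose. In LPS 7 rose and 1 fell (17.3% and 15.8% of all genes), and in Dex+LPS 8 rose (19% of all genes; 7 rose and 1 fell with plain totals). Lgmn, a lysosomal protease that cuts antigen and invariant chain, rose in every treatment, by 0.78 in Dex+LPS, 1.02 in LPS and 0.52 in vehicle (limma adjusted p = 3.5e-09, 1.32e-09 and 7.14e-06). Ctsl, a cathepsin that degrades the invariant chain, rose by 0.73 in LPS (adjusted p = 7.39e-08). Marchf1, a ubiquitin ligase that removes class II and CD86 proteins from the surface, rose by 0.50 in Dex+LPS and 0.53 in vehicle (adjusted p = 0.00029 and 0.00118), but fell by 0.35 in LPS (adjusted p = 0.0155). Its effect in LPS differed from that in vehicle by -0.88 (adjusted p = 0.0006). H2-Eb2, a class II beta chain gene beside H2-Eb1, had 7.96 to 11.2 normalized counts with Brg1 siRNA and 1.13 to 5.78 with control siRNA in LPS, near the limit of detection. The list's median was 0.47, 0.42 and 0.09 in Dex+LPS, LPS and vehicle.

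Of the 27 genes for class II transcription, 4 rose and 4 fell in vehicle, 7 and 6 in LPS, and 11 and 4 in Dex+LPS. Of all genes 9.39% rose and 10.8% fell in vehicle, 17.3% and 15.8% in LPS, and 19% and 15.3% in Dex+LPS. With plain library totals these splits were 3 and 5, 5 and 6, and 9 and 5. Rfx5, a subunit of the complex that binds the X1 box, rose by 0.83 in Dex+LPS, 0.91 in LPS and 0.71 in vehicle (limma adjusted p = 6.72e-07, 1.59e-06 and 4.78e-05). In vehicle this was opposite to Ciita, H2-Aa, H2-Ab1 and Cd74. Carm1, an arginine methyltransferase that works with Ciita, fell by 1.05 in LPS and by 0.60 in vehicle (adjusted p = 1.5e-07 and 0.000157). Ifngr1, a chain of the interferon gamma receptor, rose by 0.80 in Dex+LPS and 0.99 in LPS (adjusted p = 5.64e-09 and 3.58e-09). Rfxank, a partner of Rfx5 in the complex on the X1 box, rose under Dex where Ciita fell, by 1.79 with Brg1 siRNA and 2.70 with control siRNA (adjusted p = 1.13e-07 and 3.11e-10).

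Of the 23 tested genes for other costimulatory and coinhibitory ligands and receptors, 7 rose with Brg1 siRNA in vehicle. In LPS 10 rose and 2 fell, and in Dex+LPS 10 rose and 2 fell. Of all genes 9.39% rose in vehicle, 17.3% rose and 15.8% fell in LPS, and 19% rose and 15.3% fell in Dex+LPS. With plain totals the LPS count was 8 higher and 3 lower. Cd274 (PD-L1), a coinhibitory ligand of the same family as Cd80, rose by 0.99 in vehicle (limma adjusted p = 1.25e-06). Havcr2 (TIM-3) rose by 1.93 in LPS and 0.98 in vehicle (adjusted p = 2.12e-09 and 1.12e-05). In Dex+LPS, Tnfsf9 (4-1BB ligand) rose by 1.67 (adjusted p = 1.61e-11) and Pdcd1lg2 (PD-L2) fell by 1.56 (adjusted p = 0.0405). With Dex, 18 genes of this list fell with Brg1 siRNA and 18 with control siRNA, and 2 and 2 rose, where 23% and 25.2% of all genes fell and 21.3% and 23.4% rose.

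Of the 12 tested genes for CD40 and B7 signalling partners, 2 rose and 1 fell in vehicle, 6 and 1 in LPS, and 4 rose in Dex+LPS. In vehicle this is near the share of all genes (9.39% higher and 10.8% lower). In LPS 17.3% of all genes rose and 15.8% fell, and in Dex+LPS 19% rose. With plain library totals the count in LPS was 2 higher and 1 lower. Cd28, the receptor of CD80 and CD86, which is best known on T cells, rose by 1.55 in Dex+LPS, 1.64 in LPS and 0.62 in vehicle (limma adjusted p = 5.37e-08, 2.17e-07 and 0.00611). Its levels were 68.4 to 96.1 with Brg1 siRNA and 24.4 to 36.0 with control siRNA in Dex+LPS, 158 to 207 and 52.4 to 58.6 in LPS, and 2710.1 to 2921 and 1685 to 1922 in vehicle. Of the T and NK cell markers, Cd3g, Cd2, Ifng and Cd8a had group means of at most 0.291, 0.415, 1.13 and 1.59. Those of Cd4, Lck and Klrb1c reached 143, 37.4 and 14.1. The T and NK cell marker sum was 74.4 to 191 against 32.6 to 39.8 in Dex+LPS and 92.2 to 208 against 57.8 to 85.7 in LPS. Of the 3 tested markers of that list, 2 rose in Dex+LPS and 1 in LPS, where 19% and 17.3% of all genes rose. The part of these markers in the Cd28 change was not tested. Traf1, an adaptor of CD40 signalling, rose by 0.41 in LPS and 0.55 in vehicle (adjusted p = 0.00826 and 0.0017).

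The genes most like each member over the 20 libraries were found by Pearson's r of log2(normalized count + 1), which here mostly follows the 3 treatments that all genes share. Cd40 was most like Ccl3, Tnip1 and Dusp2 (r = 0.999, 0.999 and 0.998). Ciita was most like Armc8, St3gal5 and Fchsd2 (r = 0.979, 0.978 and 0.978), H2-Ab1 most like Src, Mecr and Prdx5 (r = 0.991, 0.990 and 0.990). H2-Aa and Cd74 had the gene Ap2m1 in common among their closest 3 (r = 0.954 and 0.962). Cd80 was most like 4933430I17Rik, H2-Q6 and Nfe2l2 (r = 0.979, 0.979 and 0.978), and Cd86 most like Phf11a, Prr5l and Csf3r (r = 0.986, 0.986 and 0.981). The closest genes of H2-DMb1 reached r = 0.929 (Ngdn), and those of the sparsely counted H2-DMa and H2-Eb1 reached 0.773 (H4c9) and 0.730 (H2af-ps2).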

How the data were processed

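Per the labels' protocols, RNA was extracted with a column kit and libraries were made with a stranded mRNA kit. The strand that was counted is not given in the sources used here. The authors deposited 1 table of 17787 genes with 20 columns of normalized counts (a signal, each library's reads over its size factor), with log2 fold changes and p-values of their own comparisons. The submitters' processing notes name Salmon 1.4.0, R 4.1.0, DESeq2 and DESeq, and GRCm38.p6 and mm10 as builds. Whole reads were recovered from the deposited signal: times the size factor, 99.95% of nonzero values came within 0.01 of a whole read.

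The filter on low values left 12061 genes, those reaching 10 normalized counts in 3 or more libraries. log2(normalized count + 1) was fitted with limma-trend (limma 3.58.1, R 4.3.3), all 6 groups in 1 fit, and p-values were adjusted (Benjamini-Hochberg) within each of 9 comparisons: the knockdown in each treatment, the LPS and Dex responses in each arm, and 2 interactions, which set the knockdown effect in LPS against that in vehicle, and in Dex+LPS against that in LPS. edgeR 4.0.16 and DESeq2 1.42.0 on the recovered reads, other scalings, pseudocounts and filters, and leaving out libraries were alternatives. The code was tested on simulated data. Levels per kb use annotated exon length joined over all transcripts of a gene (GENCODE, GRCm38). Intervals cover 95%. All 10 members are named in every comparison, with at most the 3 called genes of each list that changed most and the 3 genes most like each member. The members and lists were chosen with earlier results of these data known. Replicates differed by more than counting noise (chi-square per degree of freedom at least 4.20), so none was counted as a duplicate. For the members, the authors' deposited table called 43 of 70 values and limma 44, of which 43 were in common. One gene of the transcription list is not reported here by name.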

Additional observations from a re-analysis of the deposited data

Results flagged for a closer look

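In Brg1 siRNA Dex+LPS replicate 4, Cd74 had 4983 normalized counts, set apart from the other 3 libraries of the group (4538, 4566, 4593 and 4983 in all). The gap to its neighbour was 0.877 of the group's range, above Dixon's 95% value of 0.829 for 4 samples. Of 20 groups examined in this way 1 was so marked, which is what chance gives at 1 in 20. The marked library belongs to the higher number series. Across genes it differed from the other libraries of its group by a chi-square per degree of freedom of 19.4 to 27.2. Those libraries differed from each other by 4.85 to 6.76. Larger values were seen in the control siRNA Dex+LPS group, where replicate 2 differed from the other libraries by 34.2 to 44.8. Replicate 4 of that group differed from replicates 1 and 3 by 25.7 and 25.9, and replicates 1 and 3 from each other by 6.59.

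The effect of Brg1 silencing was called as different between LPS and vehicle, by limma's interaction term, for 4 members, where 11.4% of all genes were called. The count was 1 without the higher number series and 0 without Brg1 siRNA vehicle replicate 1. The knockdown effect was more positive in LPS for H2-Aa, by 0.43 on the log2 scale, at -0.12 in LPS and -0.55 in vehicle. It was more positive for Cd80 too, by 0.74, with effects of 1.41 in LPS and 0.67 in vehicle. For Cd40 the difference was -0.42, with effects of 0.10 in LPS and 0.52 in vehicle. For Cd86 it was -0.67, with effects of 0.87 in LPS and 1.53 in vehicle. Between Dex+LPS and LPS the knockdown effect on Cd86 differed by 0.65, with effects of 1.52 in Dex+LPS and 0.87 in LPS, where 3.97% of all genes were called. Each of these calls was lost in at least 1 alternative, as given with each gene.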

How the results depend on the processing

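Of the 49 calls on members over the 9 comparisons, 36 held in every alternative tried, 11 lost the threshold in at least 1 and 2 turned direction, both H2-DMb1 in the LPS response. With plain library totals H2-DMb1 was -0.24 (Brg1 siRNA) and -0.18 (control siRNA) in the LPS response, and in the Dex response with Brg1 siRNA it was 0.33 where it had been near 0. Plain totals also gave 4 called members, in place of 2, for the knockdown in LPS. For the knockdown in Dex+LPS, 3 members in place of 5 were called when only those groups were fitted and without the higher number series. For the interaction of knockdown and LPS, 2 in place of 4 were called with no filter on low values and 1 without the higher number series. For the interaction of knockdown and Dex the single call became 0 by limma with a pseudocount of 5, with no filter, with only the groups compared and without the higher number series, each time with 2 members at an unadjusted p under 0.05, while edgeR and DESeq2 called 1 each. Leaving out 1 library at a time gave 6 to 7 called members for the knockdown in vehicle, 2 in LPS, 3 to 5 in Dex+LPS, 8 for each LPS response, 6 to 8 for the Dex response with Brg1 siRNA, 7 with control siRNA, 0 to 4 for the LPS interaction (0 without Brg1 siRNA vehicle replicate 1) and 0 to 1 for the Dex interaction. Apart from replicate 4 in Dex+LPS, same-numbered replicates did not vary together (correlations of their deviations -0.17 to 0.079). Replicate 4 of both Dex+LPS groups, each of the higher number series, did vary together (0.41). In no comparison were all correlations over 0.1, so the numbers were not taken to pair the samples. A replicate block gave 7, 3 and 5 called members for silencing in vehicle, LPS and Dex+LPS, with H2-DMb1 added in LPS (0.23, limma adjusted p = 0.038), and it added Cd80 to the Dex response with Brg1 siRNA (0.41, adjusted p = 0.00552). Few reads and a wide spread among replicates limit what can be said of H2-Eb1 and H2-DMa.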
